A study of Mus musculus with 59 samples.

Results

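BCL6, PPARα and PPARδ peaks were examined at 10 genes of insulin signalling in mouse liver: *Insr*, *Irs1*, *Irs2*, *Pik3r1*, *Pik3ca*, *Akt1*, *Akt2*, *Foxo1*, *Foxo3* and *Igfbp1*. A peak belonged to a gene if its center lay in the gene, or if the nearest transcription start site (TSS) of any protein-coding RefSeq gene, within 100 kb, was that of the gene. The 10 genes, of 21774 protein-coding genes, held 361 of the 102931 peaks in 7 lists. Peaks of the 6 C57BL/6 lists whose centers lay within 200 bp of each other were joined into sites, and 111 of 38462 joined sites belonged to the 10 genes. The genes were selected on peaks seen in these same lists, so their peak counts are a description and carry no test.

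The study mapped the factors by ChIP-seq, which recovers and sequences the DNA bound to a protein with an antibody. Wild-type C57BL/6 mice were fed ad libitum or fasted overnight, and each factor was mapped in 3 livers of each feeding state. A further BCL6 map came from 3 fed animals of genotype *Bcl6* fl/fl, which carry loxP sites in *Bcl6* but no Cre and so keep the gene intact. All groups were of the C57BL/6 strain, and whole liver was used, which holds other cells beside hepatocytes. Each list pools its 3 livers and gives positions alone, with no read count or score, so no spread between animals and no depth can be given for any value. A site absent from a list was not called there, which does not show that it was unbound. Lists ranged from 2399 peaks for PPARδ in fasted livers to 29085 for PPARα in fasted livers, and this difference in size bears on each comparison between lists.

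Insulin binds its receptor, a tyrosine kinase that phosphorylates the insulin receptor substrates IRS1 and IRS2. These recruit phosphoinositide 3-kinase, and the lipid it makes activates the AKT kinases. In hepatocytes AKT keeps the FOXO transcription factors out of the nucleus, and in the fasted state FOXO1 returns to activate genes of glucose production, *Irs2* and *Igfbp1*. BCL6 is a zinc finger repressor, PPARα is the lipid-sensing nuclear receptor of the fasting response, and PPARδ is a related receptor that binds the same kind of element.

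The sequences below are the sites that were called in the most lists at each of the 6 genes with the most joined sites, with ties settled by the shorter distance to a TSS. Each is 201 bp around the site center on the plus strand of mm10, and they are shown as the positions at these genes that recurred most across factors and states. Capitals mark matches to a BCL6 element, TTCCTAGAA with 1 mismatch allowed, or to the direct repeat of AGGTCA with 1 base between the copies (DR1) that PPARs bind with RXR, with 2 mismatches allowed over its 12 fixed letters. Both strands were searched, and a match is a match of letters only.
Irs2, chr8:10974226-10974426: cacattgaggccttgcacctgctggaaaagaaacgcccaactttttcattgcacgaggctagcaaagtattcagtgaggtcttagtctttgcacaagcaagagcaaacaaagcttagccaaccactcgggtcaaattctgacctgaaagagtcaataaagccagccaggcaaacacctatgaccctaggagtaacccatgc
Pik3r1, chr13:101764214-101764414: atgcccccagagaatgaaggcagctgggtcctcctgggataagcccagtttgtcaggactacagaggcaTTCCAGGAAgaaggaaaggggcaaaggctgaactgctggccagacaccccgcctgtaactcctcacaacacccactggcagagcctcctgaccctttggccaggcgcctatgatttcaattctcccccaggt
Insr, chr8:3256646-3256846: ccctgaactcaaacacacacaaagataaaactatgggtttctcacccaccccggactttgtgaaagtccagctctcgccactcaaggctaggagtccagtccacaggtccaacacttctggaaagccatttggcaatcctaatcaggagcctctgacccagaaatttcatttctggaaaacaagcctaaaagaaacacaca
Igfbp1, chr11:7152494-7152694: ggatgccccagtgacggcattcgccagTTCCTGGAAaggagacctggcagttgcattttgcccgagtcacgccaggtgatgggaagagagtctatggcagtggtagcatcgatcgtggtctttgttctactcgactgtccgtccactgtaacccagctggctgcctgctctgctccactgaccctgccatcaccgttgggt
Foxo3, chr10:42270798-42270998: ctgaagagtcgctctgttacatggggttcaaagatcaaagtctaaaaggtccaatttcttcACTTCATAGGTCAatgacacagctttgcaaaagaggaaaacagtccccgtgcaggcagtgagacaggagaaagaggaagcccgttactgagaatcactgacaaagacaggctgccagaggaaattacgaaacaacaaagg
Irs1, chr1:82238356-82238556: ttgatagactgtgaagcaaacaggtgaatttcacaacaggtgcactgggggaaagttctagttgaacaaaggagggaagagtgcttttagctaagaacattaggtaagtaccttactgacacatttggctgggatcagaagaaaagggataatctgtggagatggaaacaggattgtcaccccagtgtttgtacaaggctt

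The *Irs2* site lay 34603 bp downstream of the 5′ end of the gene, past its 3′ end, and was called in 6 lists. The *Pik3r1* site lay in intron 1 and was called in 5 lists, every list but those of PPARδ. It held TTCCTGGAA on the minus strand, 1 letter from the BCL6 element, and the same word stood on the plus strand of the *Igfbp1* site. The *Insr* site lay in intron 2, the *Foxo3* site in intron 2, and the *Igfbp1* site 45193 bp upstream of the gene in intron 14 of *Adcy1*, an adenylyl cyclase gene. These 3 sites were called in all 7 lists. The *Foxo3* site held the only DR1 match of the 6, with 2 mismatches, and the *Insr*, *Irs2* and *Irs1* windows held neither element. The *Irs1* site, called in 6 lists, lay in intron 1.

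Joined sites were unevenly spread over the 10 genes. *Irs2* had 27, *Pik3r1* 25, *Insr* 18, *Igfbp1* 11, *Foxo3* 9, *Irs1* 7, *Foxo1* 6, *Akt2* 4, *Pik3ca* 3 and *Akt1* 1. The median was 8, against 1 over all genes and 2 over the 11206 genes with at least 1 site. By number of sites *Irs2* ranked 25th and *Pik3r1* 35th of all genes, and *Akt1* 7054th. Genes with more sequence assigned to them can hold more sites. The rule gave *Irs2* 200 kb, the most that a short gene with distant neighbors can get, and *Akt1* 22.9 kb. Per Mb of assigned sequence, *Igfbp1* had 146 sites, *Irs2* 135, *Insr* 109, *Pik3r1* 90.7, *Irs1* 62.2, *Akt2* 61.7, *Foxo3* 52.6, *Akt1* 43.6, *Pik3ca* 35.4 and *Foxo1* 33.1. The median of the 10 was 62.0 sites per Mb, against 36.0 over genes with at least 1 site, and all assigned sequence together held 19.2 per Mb. *Igfbp1* was thus first by density, though not by count, and *Foxo1* was last. Of the 11 *Igfbp1* sites, 7 lay in introns of *Adcy1* and were assigned to that gene as well.

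**Figure D1:**
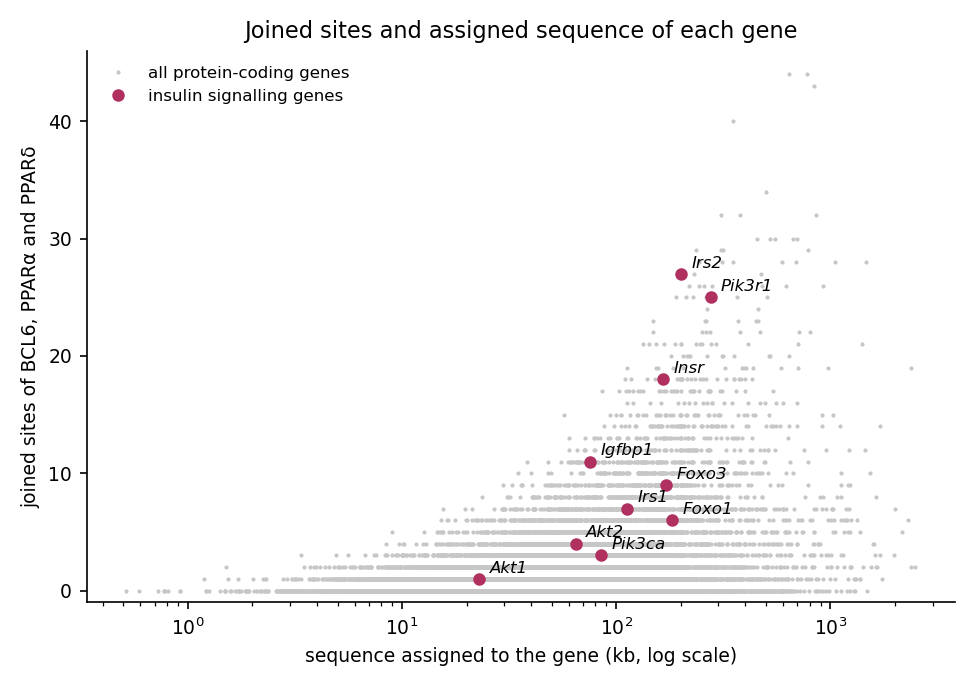
Number of joined sites (y axis) against the sequence assigned to a gene in kb (x axis, log scale) for all protein-coding genes (gray) and the 10 insulin signalling genes (red). *Irs2* with 27 sites and *Pik3r1* with 25 stand near the upper edge, and *Akt1* has 1 site in 22.9 kb.

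The members' place in each list was as follows. BCL6 in fed C57BL/6 livers had a peak at all 10 genes, against 28.0% of all genes, and in fasted livers at 7, against 20.6%. The fed *Bcl6* fl/fl list had a peak at all 10, against 30.9%. PPARα had a peak at 10 genes in fed and 9 in fasted livers, against 34.3% and 46.0% of all genes. PPARδ had a peak at 8 in fed and 4 in fasted livers, against 18.6% and 8.70%. The median peaks per member were 4, 3.5, 5.5, 5.5, 7.5, 3 and 0 in that order of lists, and the median over all genes was 0 in each. As peaks chose the genes, nothing is read from these shares.

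Peaks at the 10 genes fell from 52 in the fed to 45 in the fasted list for BCL6, a ratio of 0.865, while the whole BCL6 list shrank from 15642 to 9613 peaks, a ratio of 0.615. For PPARα they rose from 69 to 89, a ratio of 1.29 against 1.36 for the whole list. For PPARδ they fell from 28 to 9, a ratio of 0.321 against 0.327. The PPARα and PPARδ totals at the members thus changed by about the factor of the whole list, and the BCL6 total changed by less. Per 1000 peaks of a BCL6 list, member peaks were 3.32 in the fed and 4.68 in the fasted C57BL/6 list. They were 3.95 in the fed *Bcl6* fl/fl list, so the difference was smaller with that fed list. Leaving out each gene in turn put the BCL6 ratio between 0.761, without *Igfbp1*, and 0.927, without *Pik3r1*. BCL6 peaks were fewer in fasted than in fed livers at 6 of the 10 genes, against 61.5% of all genes with a BCL6 peak, and more numerous at 2, against 11.4%. PPARα peaks were more numerous in fasted livers at 8 of 10 genes, against 60.0%, and fewer at *Akt1* alone, against 12.5%. PPARδ peaks were fewer in fasted livers at all 8 genes that had any, against 74.6%, and none had more, against 10.6%.

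**Figure D2:**
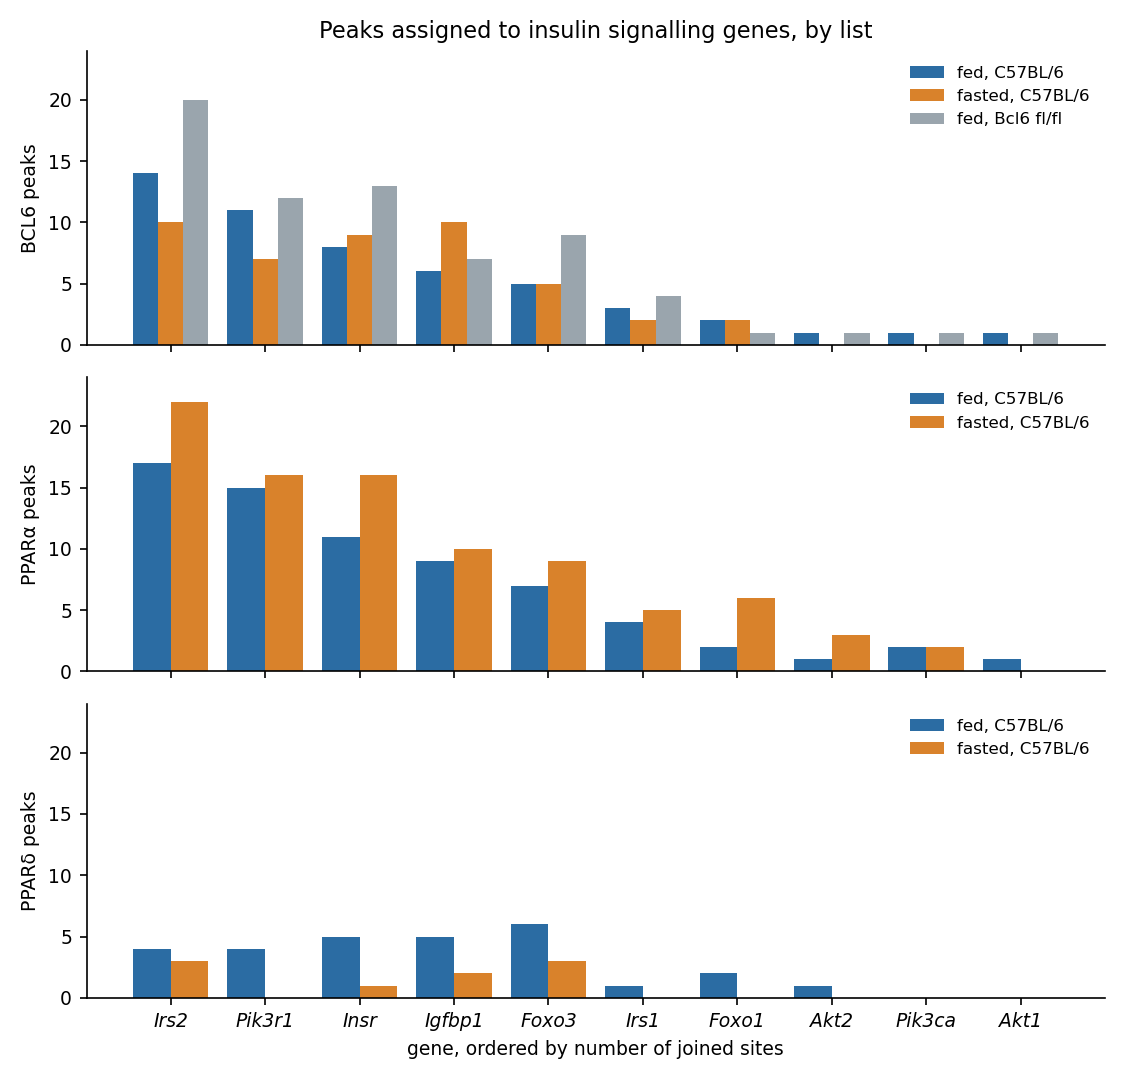
Peaks (y axis, number) assigned to each gene (x axis) for BCL6 (top), PPARα (middle) and PPARδ (bottom) in the fed (blue) and fasted (orange) C57BL/6 lists, and in the fed Bcl6 fl/fl list (gray). *Igfbp1* has 10 BCL6 peaks in the fasted and 6 in the fed C57BL/6 list, and no PPARδ bar exceeds 6.

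Fed and fasted peaks of 1 factor were next joined into sites of that factor. Of 61 BCL6 sites at the 10 genes, 16 were called in the fed list only, which is 26.2% (95% Wilson interval 16.8 to 38.4%), against 45.4% of all 17599 BCL6 sites. The fasted list alone held 9, which is 14.8% (interval 8.0 to 25.7%), against 11.1%, and both lists held 36, which is 59.0%, against 43.5% of all BCL6 sites. The fed *Bcl6* fl/fl list held the fasted-only sites of *Insr*, *Pik3r1* and *Foxo3* and the *Igfbp1* site 61820 bp upstream. It did not hold that of *Irs2* or the others of *Igfbp1*. When the fed *Bcl6* fl/fl list took the place of the fed C57BL/6 list, 33 of 78 sites were fed only, 42.3% (interval 32.0 to 53.4%), against 50.3% of all 19339 sites. The gap between the members and all sites was thus smaller with the other fed list. As peaks of these lists chose the genes, the shares are a description. The intervals cover counting error only, and sites of 1 gene are not independent. Of 97 PPARα sites, 28 were called in fasted livers only, 28.9% (interval 20.8 to 38.6%), against 35.9% of all, and 8 in fed livers only, 8.2% (interval 4.2 to 15.4%), against 12.9%. Of 30 PPARδ sites, 21 were fed only, 70.0% (interval 52.1 to 83.3%), against 70.7% of all, and 2 were fasted only, 6.7% (interval 1.8 to 21.3%), against 10.6%.

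**Figure D3:**
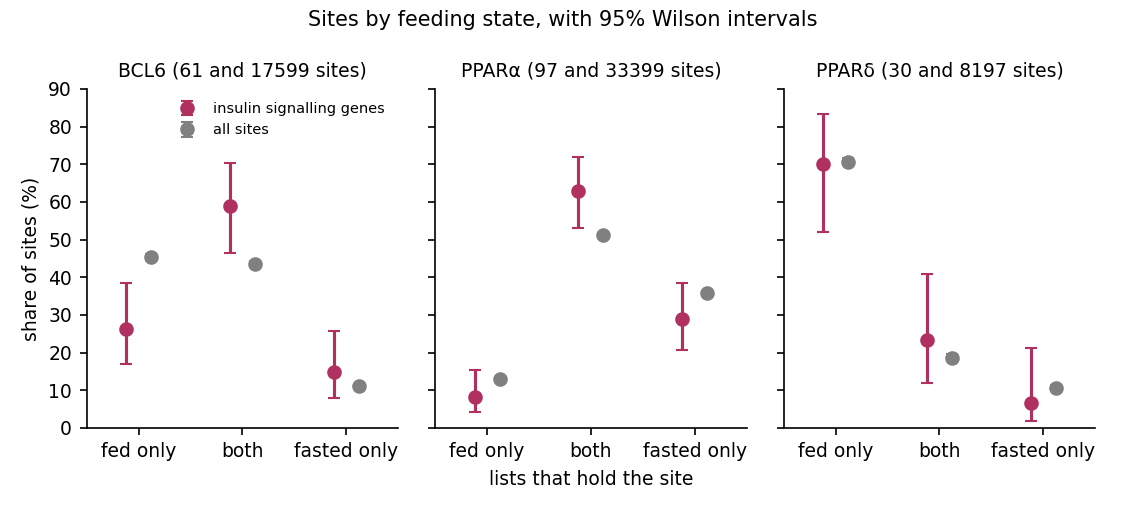
Share of sites in percent (y axis) called in the fed list only, in both lists or in the fasted list only (x axis) for BCL6, PPARα and PPARδ, at the insulin signalling genes (red) and over all sites (gray), with 95% Wilson intervals of counting error. The fed-only share of BCL6 sites is 26.2% at the 10 genes and 45.4% over all sites, while both PPARδ fed-only points lie near 70%.

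The factors overlapped at most BCL6 sites. A PPARα peak lay within 200 bp of 53 of the 61 BCL6 sites, 86.9% (interval 76.2 to 93.2%), against 77.5% of all BCL6 sites. With the fed *Bcl6* fl/fl list in place of the fed C57BL/6 list, the member share was 61 of 78, 78.2%. At the 53 sites of the C57BL/6 lists the nearest BCL6 and PPARα centers were a median of 12 bp and at most 81 bp apart. The 8 BCL6 sites without PPARα were spread over *Insr* (1), *Irs1* (1), *Irs2* (2), *Pik3r1* (3) and *Akt2* (1). All 3 factors were called at 18 of the 111 joined sites, 16.2% (interval 10.5 to 24.2%), against 12.1% of all, and *Foxo3* held 6 of them, *Igfbp1* 4, *Irs2* 3, *Insr* 2 and *Irs1*, *Pik3r1* and *Foxo1* 1 each. PPARα alone stood at 38 member sites, 34.2%, against 45.3% of all joined sites, and BCL6 with PPARα at 35, 31.5%, against 23.4%. BCL6 alone stood at 8, 7.2%, against 10.0%. PPARα with PPARδ and PPARδ alone stood at 6 each, 5.4%, against 6.0% and 3.0%. Of the 53 sites with BCL6 and PPARα, 30 were called for both factors in both states, which is 56.6%, against 44.0% of such sites over the genome. A fed-only BCL6 call with PPARα in both states, the second most common class genome-wide at 25.1%, was seen at 6 member sites, 11.3%. Both classes rest on the fed C57BL/6 BCL6 calls and are given for that list only. They are not separate from the fed-only BCL6 share at the members, which was 26.2% with that list and 42.3% with the fed *Bcl6* fl/fl list.

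Only 6 of the 111 sites, 5.4% (interval 2.5 to 11.3%), lay in a promoter, taken as the 1000 bp before and 100 bp after a TSS of the gene, against 13.5% of all joined sites for the promoter of any gene. Another 51 lay elsewhere in the member, 33 upstream and 21 downstream of it. All coordinates and exon and intron numbers are on mm10, with RefSeq annotation of GRCm38 and the longest curated transcript over the site.

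The insulin receptor gene *Insr* (chromosome 8, 3150922 to 3279649, minus strand) held 16 of its 18 sites within the gene, and 11 of these in intron 2. BCL6 had 8 peaks in the fed C57BL/6, 9 in the fasted C57BL/6 and 13 in the fed *Bcl6* fl/fl list. PPARα had 11 fed and 16 fasted peaks, and PPARδ 5 and 1. No BCL6 or PPARα site of *Insr* was called in the fed list only. Of 9 BCL6 sites, 8 were called in both states, and the ninth, 48940 bp from the 5′ end, was missing from the fed C57BL/6 list but was called in the fed *Bcl6* fl/fl list. All 5 fasted-only PPARα sites lay in the gene, at 39762, 58505, 63752, 94224 and 94953 bp from the 5′ end. One site lay over coding exon 3, with PPARα in both states and PPARδ in fed livers. Of the BCL6 lists, only the fed *Bcl6* fl/fl list held this exon 3 site. An outlying site 34558 bp upstream had BCL6 in all 3 BCL6 lists and no PPAR peak.

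The substrate genes differed in layout. *Irs2* (chromosome 8, 10984681 to 11008929, minus strand) had 1 site within the gene, 1 in its promoter, 10 farther upstream and 15 downstream, between 89707 bp upstream and 98387 bp downstream of the 5′ end. BCL6 had 14 fed, 10 fasted and 20 fed *Bcl6* fl/fl peaks, PPARα 17 fed and 22 fasted, and PPARδ 4 fed and 3 fasted. The promoter site, 922 bp upstream of the TSS, had BCL6 in both fed lists and not in the fasted one, and PPARα in both states. It was 1 of 5 fed-only BCL6 sites at *Irs2*, of which the others lay 72105 bp upstream and 40214, 96229 and 97410 bp downstream. The only site inside the gene, in intron 1, carried BCL6 in the fasted list alone, with no PPAR peak. Of 23 PPARα sites, 16 were called in both states, 6 in fasted livers only and 1 in fed livers only. *Irs1* (chromosome 1, 82233105 to 82291439, minus strand) had fewer: 3 fed, 2 fasted and 4 fed *Bcl6* fl/fl BCL6 peaks, 4 fed and 5 fasted PPARα peaks, and 1 PPARδ peak, in fed livers. A PPARα peak called in fasted livers alone lay 86 bp from the 5′ end, in the 5′ UTR of exon 1, 4 sites lay in intron 1, and 1 lay in the 3′ UTR of exon 2 with BCL6 and PPARα in both states.

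*Pik3r1* (chromosome 13, 101680761 to 101768217, minus strand), which encodes the p85α regulatory subunit of phosphoinositide 3-kinase, had 12 sites within the gene, 1 in its promoter, 8 upstream and 4 downstream. BCL6 had 11 fed, 7 fasted and 12 fed *Bcl6* fl/fl peaks, PPARα 15 fed and 16 fasted, and PPARδ 4 fed and 0 fasted. Among 13 BCL6 sites, 6 were fed only, 5 were in both lists and 2 were fasted only. Both fasted-only sites, 16656 bp upstream and 70073 bp from the 5′ end, were called in the fed *Bcl6* fl/fl list. Of the fed-only sites, that list held the one 5275 bp into the gene and no other. At 3 of the fed-only sites, 64310 and 9484 bp upstream and 5275 bp into the gene, PPARα was also called in fed livers only. Across the 10 genes 5 sites were fed only for both factors, and the other two were the single *Akt1* site and a *Pik3ca* site 2915 bp upstream of the gene. *Pik3ca* (chromosome 3, 32397065 to 32466112, plus strand), the gene of the p110α catalytic subunit, had 2 PPARα peaks in each state, 1 BCL6 peak in each fed list and none in fasted livers, and no PPARδ peak. Its fed BCL6 peaks lay at different sites, 2915 bp upstream in the C57BL/6 list and 2541 bp into the gene in the *Bcl6* fl/fl list.

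The AKT genes, which encode the kinases that carry most of the hepatic insulin signal, had the fewest sites beside *Pik3ca*. The *Akt1* site (gene on chromosome 12, 112653821 to 112674884, minus strand) lay in intron 2, with BCL6 in both fed lists, PPARα in the fed list, and no peak in a fasted list. *Akt2* (chromosome 7, 27591552 to 27640826, plus strand), the main AKT gene of liver, had 1 BCL6 peak in fed and 0 in fasted C57BL/6 livers, 1 in fed *Bcl6* fl/fl livers, 1 fed and 3 fasted PPARα peaks and 1 fed PPARδ peak. Its C57BL/6 BCL6 peak lay 163 bp upstream of the TSS with no PPAR peak, whereas the *Bcl6* fl/fl peak lay at another site, 1868 bp into the gene, which also had PPARα in both states and PPARδ in fed livers.

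*Foxo1* (chromosome 3, 52268337 to 52350109, plus strand) and *Foxo3* (chromosome 10, 42181845 to 42276695, minus strand) encode transcription factors that AKT phosphorylates. *Foxo1* had 2 PPARα peaks in fed and 6 in fasted livers, and 4 of its 6 PPARα sites were fasted only. *Akt2*, with 2 of 3, had the same share, and no member had a higher one. BCL6 was called at 2 *Foxo1* sites, both in both states. One of these, in intron 1 and 22770 bp from the 5′ end, had all 3 factors, and the other lay 99747 bp from the TSS, near the limit of 100 kb. *Foxo3* had 5 fed, 5 fasted and 9 fed *Bcl6* fl/fl BCL6 peaks, 7 fed and 9 fasted PPARα peaks, and 6 fed and 3 fasted PPARδ peaks, the most of any member for fed PPARδ. Of its 9 sites, 8 lay in intron 2 and 1 in intron 7 of the neighboring gene *Afg1l*, and the 6 sites with BCL6 were the 6 with PPARδ and all had PPARα. Of the 4 member sites called in all 7 lists, 2 were in *Foxo3*, 5797 and 25250 bp from the 5′ end.

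*Igfbp1* (chromosome 11, 7197787 to 7202546, plus strand) encodes a secreted binding protein of insulin-like growth factors that insulin represses in liver. It had 6 BCL6 peaks in fed and 10 in fasted C57BL/6 livers, the largest excess of fasted over fed BCL6 peaks among the members, and 7 in fed *Bcl6* fl/fl livers. PPARα had 9 fed and 10 fasted peaks, and PPARδ 5 and 2. All 10 BCL6 sites had PPARα. None of them was fed only, 6 were called in both states and 4, at 61820, 54831, 49543 and 10117 bp upstream, in fasted livers only. Of these 4, the fed *Bcl6* fl/fl list held the one at 61820 bp and not the other 3. No site lay within the gene, and 7 of the 11 lay 44556 to 63907 bp upstream in introns of *Adcy1*, so their gene rests on the nearest TSS. A promoter site, 174 bp upstream of the TSS, had BCL6 and PPARα in both states in C57BL/6 livers and was not called in the *Bcl6* fl/fl list.

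**Figure D4:**
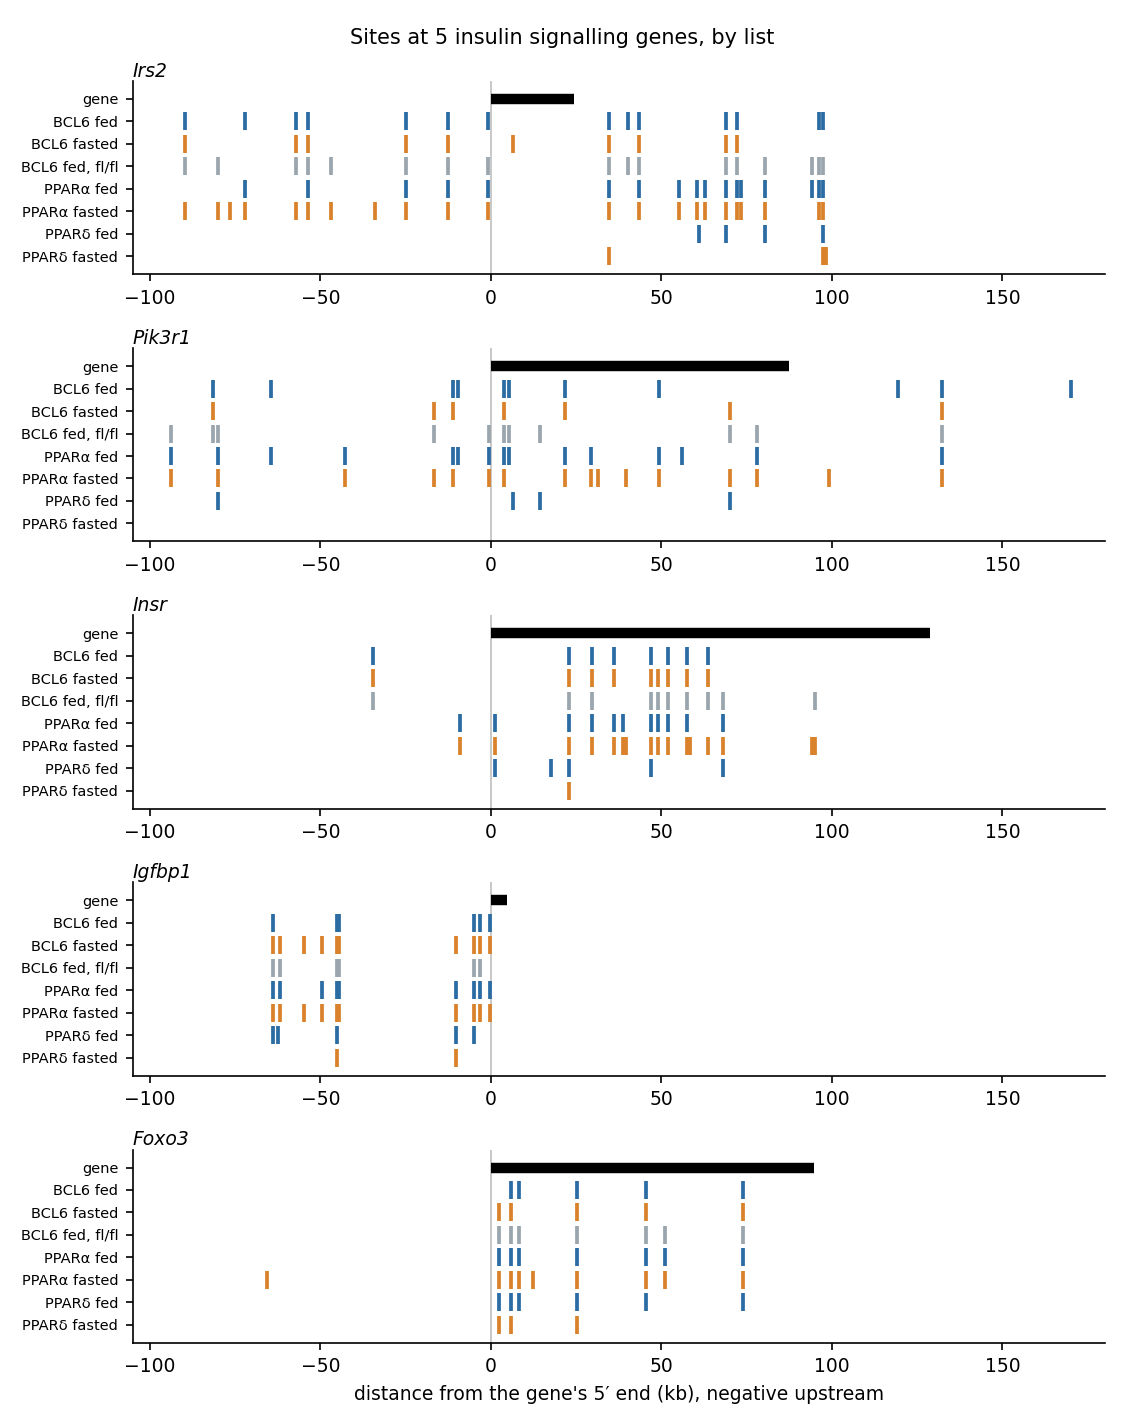
Sites at *Irs2*, *Pik3r1*, *Insr*, *Igfbp1* and *Foxo3* by distance from the 5′ end of the gene in kb (x axis, negative upstream) and by list (rows), with the gene as a black bar. *Irs2* sites flank the gene, *Foxo3* sites lie in it but for 1, and 7 *Igfbp1* sites cluster between 44556 and 63907 bp upstream. Peaks of the Bcl6 fl/fl list (gray) are drawn only at sites of a C57BL/6 list.

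The promoter table of RefSeq for GRCm38 held 14 promoters of 9 members, not that of *Insr*, each with 250 bp before and 50 bp after a start. A peak center lay in 2 of them, *Igfbp1* in 4 lists and *Akt2* in 1, and their 250 bp upstream of the TSS are printed because BCL6 was called within them. Here capitals would mark either element above or CAAAACA, the core of the insulin response sequence that FOXO factors bind.
Igfbp1, chr11:7197537-7197786: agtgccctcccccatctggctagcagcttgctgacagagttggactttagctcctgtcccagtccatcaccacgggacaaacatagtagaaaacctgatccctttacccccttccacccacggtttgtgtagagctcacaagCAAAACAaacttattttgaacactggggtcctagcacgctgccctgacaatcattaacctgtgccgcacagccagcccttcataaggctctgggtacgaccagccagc
Akt2, chr7:27591302-27591551: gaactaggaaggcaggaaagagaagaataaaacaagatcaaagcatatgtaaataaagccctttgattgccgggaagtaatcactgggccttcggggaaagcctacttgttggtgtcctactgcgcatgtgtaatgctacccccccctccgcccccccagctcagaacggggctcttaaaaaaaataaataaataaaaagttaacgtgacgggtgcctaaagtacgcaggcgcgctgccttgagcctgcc
The *Igfbp1* promoter held CAAAACA on the printed strand and neither the BCL6 nor the DR1 element, and the *Akt2* sequence held none of the 3, the BCL6 match at that *Akt2* site starting before the printed bases. CAAAACA without mismatch, on either strand, was found in 6.29% of 32817 promoters of the same length, the BCL6 element in 8.62% and DR1 in 3.86%. The word was also in the tabled promoters of *Irs1*, with 2 matches, and *Irs2*, with 1.

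Within 100 bp of the center, a BCL6 element was found at 11 of 61 member BCL6 sites, 18.0% (interval 10.4 to 29.5%), against 15.9% of all BCL6 sites. *Insr* had 3 of them, *Irs2* 2, and *Irs1*, *Pik3r1*, *Akt1*, *Akt2*, *Foxo3* and *Igfbp1* 1 each. A DR1 element was found at 12 of 97 member PPARα sites, 12.4% (interval 7.2 to 20.4%), against 14.0% of all. *Irs2* had 4, *Insr* 3, *Foxo3* 2 and *Irs1*, *Pik3r1* and *Akt2* 1 each, and none of the 10 PPARα sites of *Igfbp1* or the 6 of *Foxo1* held one. Both intervals took in the share over all sites. They cover counting error only, and sites of 1 gene are not independent, so this is a description and no test of likeness.

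The list of fed *Bcl6* fl/fl livers served as a second fed map of BCL6. It held 39 of the 52 fed C57BL/6 BCL6 peaks at the 10 genes, 75.0% (interval 61.8 to 84.8%), against 69.4% of all 15642 fed peaks. *Irs2* peaks recurred at 13 of 14, *Insr* at 7 of 8, *Igfbp1* at 5 of 6, *Foxo3* at 5 of 5 and *Irs1* at 3 of 3. *Pik3r1* peaks recurred at 4 of 11 and *Foxo1* at 1 of 2. The single peak of *Akt1* recurred, and those of *Pik3ca* and *Akt2* did not. Of the 13 peaks that did not recur 7 were thus at *Pik3r1*, and without that gene 35 of 41 recurred, 85.4%. The *Bcl6* fl/fl list held 69 peaks at the members, of which 30 had no fed C57BL/6 BCL6 peak within 200 bp and 11 no peak of any C57BL/6 list.

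Another 48 genes of the pathway, which include kinases, phosphatases, adaptors and target genes, were counted in the same way. Of these, 41 had at least 1 joined site, against 11206 of all 21774 genes. Their median was 3 sites, against 1 over all genes. This list too was chosen with earlier results of these data known, so its counts are a description. A BCL6 peak was called at 25 of the 48 in fed, 23 in fasted and 29 in fed *Bcl6* fl/fl livers, against 28.0%, 20.6% and 30.9% of all genes. A PPARα peak was called at 32 in fed and 38 in fasted livers, against 34.3% and 46.0%, and a PPARδ peak at 20 and 12, against 18.6% and 8.70%. BCL6 peaks were fewer in fasted livers at 13 of the 26 genes with any, against 61.5% of all genes, more numerous at 3, against 11.4%, and equal at 10. PPARα peaks were more numerous in fasted livers at 23 of 40, against 60.0%, fewer at 8, against 12.5%, and equal at 9. PPARδ peaks were fewer in fasted livers at 16 of 22, against 74.6%, more numerous at 2, against 10.6%, and equal at 4. The 6 with the most sites were *Ptpn1* with 22, *Igf1* and *Trib1* with 18 each, *Phlpp1* with 14, *Ptprf* with 12 and *Igfbp2* with 10. *Ptpn1* encodes a phosphatase that dephosphorylates the insulin receptor, and had 4 fed and 3 fasted BCL6 peaks against 13 fed and 21 fasted PPARα peaks. *Igf1*, the gene of insulin-like growth factor 1, had 13 fed and 10 fasted BCL6 peaks and 13 PPARα peaks in each state. *Trib1*, a pseudokinase gene, had 11 fed and 16 fasted PPARα peaks and no PPARδ peak.

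By the number of peaks in the 7 lists, the genes outside the pathway most like *Irs2* were *Bach2* (Euclidean distance 3.32 peaks), *Nav2* (5.83) and *Rbm47* (6.48). *Bach2* had 16 BCL6 peaks in fed and 11 in fasted livers, 18 and 20 of PPARα, and 4 and 3 of PPARδ. Those most like *Pik3r1* were *Tenm3* (2.45), *Daam1* (2.83) and *Fndc3b* (3.32).

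At the limit of 100 kb, the farthest peaks still inside were 3 at *Foxo1*, 99703 to 99778 bp from its TSS, and the nearest outside were 3 at *Irs1*, 102403 to 102739 bp away. Up to 1 Mb, 252 further peaks had a member's TSS as the nearest, 78 at *Foxo1*, 77 at *Pik3r1*, 50 at *Irs1* and 47 at *Irs2*, and the other 6 genes had none.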

How the data were processed

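Peak lists of 7 ChIP-seq groups were used, each of 3 of the 59 samples; the other 38 samples have no peak list among these and were not used here. Alignment by the authors used Bowtie and mm10, with reads of 1 genomic place retained. Peaks were sought by the authors in HOMER after pooling the replicates, with input as background, and DESeq2 then retained those enriched across single libraries. The deposited lists hold peak positions in bp and neither counts nor scores, so depth is unknown. Reads of repeated sequence were not counted by the authors, and peaks there can be missing.

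Peak centers were joined by single linkage at 200 bp, the distance of the study. Genes came from RefSeq on GRCm38 (mm10), with all mRNA starts. Elements were searched within 100 bp of the mean center of a site. The functions were tested on simulated data. Python 3.11.15, NumPy 2.4.6 and SciPy 1.17.1 were used. The members, the pathway list and the rules were chosen with earlier results of these data known. The rule named all members, the 6 pathway genes with the most sites, the 3 genes most like *Irs2* and *Pik3r1* by peaks in 7 lists, and 1 sequence for each of the 6 members with the most sites. The *Pik3r1* share without that gene and the leave-out of each gene were added after the values were seen.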

Additional observations from a re-analysis of the deposited data

How the results depend on the processing

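Of 87 alternatives to 16 values, 74 kept the count within 1.5 times or the share within its interval and 13 did not. With a reach of 1 Mb the member peaks were 99 for fed, 81 for fasted and 111 for fed *Bcl6* fl/fl BCL6, 116 for fed and 140 for fasted PPARα, and 52 for fed and 14 for fasted PPARδ, and joined sites were 179, as more sequence was assigned. With the *Bcl6* fl/fl list in place of the fed C57BL/6 list, fed-only BCL6 sites were 42.3%; the cause was not tested. A window of 25 bp to either side put the BCL6 element at 3.28% and DR1 at 6.19% of sites, and fewer mismatches allowed put them at 1.64% (0 mismatches) and 3.09% (1 mismatch), as both search less. A joining distance of 100 or 400 bp, overlap of the intervals, the nearest TSS without the gene body, a reach of 50 kb and 1 TSS per gene left every value computed under them within those bounds. No paired analysis was possible because each list pools its replicates, and for the same reason no replicate could be left out.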
